A study of Homo sapiens with 8 samples.

Results

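The 37 genes described here encode the Polycomb group complexes and their counterparts at histone H3: the subunits of Polycomb repressive complexes 1 and 2 (PRC1 and PRC2), the PR-DUB deubiquitinase, the H3K27 demethylases KDM6A and KDM6B and the H3K4 methyltransferases KMT2A to KMT2D. They were taken by symbol through GENCODE 29 from 58780 annotated genes by a list of names with no threshold on measured values, and all 37 passed the filter on low counts. RNA was measured by RNA-seq of total, ribosome-depleted RNA in H1, an established human embryonic stem cell line, at 4 stages of a stepwise differentiation with 2 libraries each. The stages are hESC for undifferentiated cells, hDE for definitive endoderm, hAFE for foregut endoderm of anterior character and hPFE for that of pharyngeal character. All stages come from the same line, with no genotype or genetic change named. The labels give neither the days nor the agents of the protocol, and do not say if paired libraries are separate cultures. The p-values therefore measure the spread between libraries, which may be technical. Titles of the first 2 stages carry a mark of re-analysis and those of the foregut stages do not, so that origin and stage cannot be told apart in hAFE vs hDE or in hPFE vs hESC. In hDE vs hESC all libraries carry the mark, and in hPFE vs hAFE none does. The titles do not say whether libraries alike in this mark were made together.

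PRC2 places methyl groups on lysine 27 of histone H3 (H3K27), a mark of silenced genes. PRC1 ubiquitinates histone H2A and, in its canonical form, reads H3K27 trimethylation through a CBX subunit and compacts chromatin through PHC subunits. PR-DUB removes the H2A ubiquitin, KDM6 enzymes remove H3K27 methylation, and KMT2 enzymes methylate H3K4 at promoters and enhancers. In embryonic stem cells, Polycomb complexes occupy the promoters of developmental regulators such as the HOX genes, many of which carry H3K4 and H3K27 methylation together.

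Each library held between 12687200 and 17802900 expected counts. Levels across stages are given as CPM, counts relative to the TMM-scaled library total, and levels between genes as TPM, which allow for transcript length. The summed level of 5 stem cell markers was 2120 to 2273 CPM in hESC and 67.4 to 238 CPM in the later stages. The 6 definitive endoderm markers summed to 8566 to 9282 CPM in hDE and to at most 80.4 CPM elsewhere. The 8 foregut and pharynx markers summed to 278 to 348 CPM in hAFE and 253 to 378 CPM in hPFE, against 46.5 to 134 CPM earlier. These sums followed the labels of hESC, hDE and the foregut stages together, but did not separate hPFE from hAFE. At an adjusted p of 0.05, edgeR called 0 of the 8 foregut markers higher or lower in hPFE than in hAFE. DESeq2 called 0 higher and 2 lower. The foregut list shares SOX2 with the stem cell list and FOXA2 with the endoderm list. The hPFE libraries also held mesenchyme transcripts, at 1333 CPM summed over 5 markers in the first library and 97.9 CPM in the second, against 11.6 to 36.8 CPM in the other stages. Replicates differed more in the later stages, with a standard deviation of the log2 difference over 9852 genes of 0.31 for hESC and 0.27 for hDE, against 0.59 for hAFE and 0.56 for hPFE. In bulk libraries fewer cells of a type and less RNA per cell cannot be told apart.

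Among the members, PHC1 and JARID2 were lower, and PHC2, BMI1, PCGF5, CBX8, ASXL1, KDM6B and KMT2D higher, in hDE than in hESC by at least 3-fold, and ASXL3, SCMH1, EZH2, CBX8, CBX2 and PHC3 were at least 2-fold higher in hAFE than in hDE. In hDE vs hESC, 10 members were higher, 8 lower and 19 not called at an adjusted p of 0.05, which is 48.6% called against 41.9% of all 17446 genes tested (20.3% of genes higher and 21.6% lower). In hAFE vs hDE, 13 members were higher, 1 lower and 23 not called, which is 37.8% against 30.2% of all genes (15% higher and 15.2% lower). The RNA composition differed in that comparison too. There, 7SL RNA made up 8.48% and 11.2% of the counts in hAFE against 18.2% and 16.6% in hDE. Of 13 mitochondrial messengers, 9 were lower in hAFE. The 7SL share was also lower in hESC than in hDE, at 11.97% and 10.7% in the hESC libraries. It differed between the hPFE libraries, at 11.4% in the first and 3.78% in the second. The part of RNA composition in the members' differences was not tested. In hPFE vs hAFE, 5 members were lower and 32 not called, 13.5% against 7.49% of all genes (4.77% higher and 2.71% lower), and 0 were higher by edgeR, where 2 had an unadjusted p under 0.05 and DESeq2 called 1, PCGF5. In hPFE vs hESC, 14 members were higher, 4 lower and 19 not called, 48.6% against 45% of all genes (21.6% higher and 23.3% lower). The shares called were thus near those of all genes in hDE vs hESC, hAFE vs hDE and hPFE vs hESC. In hPFE vs hAFE the share rests on 5 members. The number of called members is not in itself a result about them in any comparison. Both libraries of the later stage lay above both of the earlier for 19 members and below for 13 in hDE vs hESC (79.8% of all genes did either), 23 and 8 in hAFE vs hDE (70.3%), 4 and 19 in hPFE vs hAFE (49.8%), and 18 and 11 in hPFE vs hESC (75.2%).

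Some of these counts fell when a single library was left out. The number of calls among all genes fell in the same fits, so the drop is not particular to the members. Without the first hESC, the second hESC or the first hDE library, 11 members were called in hDE vs hESC, and without either hDE library 7 were called in hAFE vs hDE. In hPFE vs hAFE, 3 were called without either hESC library, either hDE library or the first hAFE library. The comparisons share stages, so their folds are not independent of each other. Across all 4, 26 members were called at least once by edgeR and 11 in none of them, namely EED, RBBP4, PHF1, CBX6, CBX7, RNF2, PCGF1, PCGF2, PCGF6, BAP1 and KDM6A. The median log2 fold change of the members was 0.11, 0.36, -0.21 and 0.32 in the order of comparisons above, beside -0.01, 0.01, -0.03 and 0.02 for all genes.

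**Figure D1:**
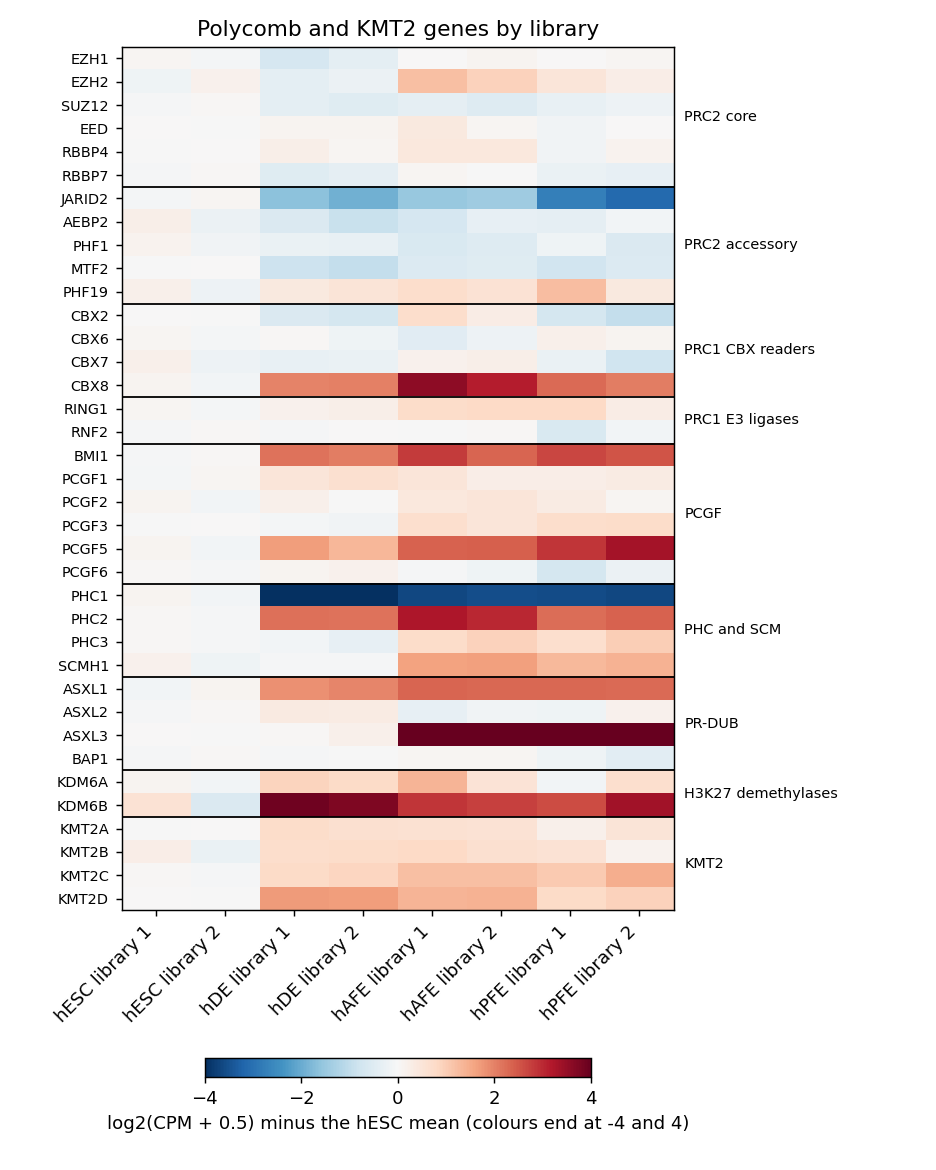
Level of each of the 37 genes in each of the 8 libraries, as log2(CPM + 0.5) minus the mean of the 2 hESC libraries, with rows grouped by role. PHC1 and JARID2 are the deepest blue rows after hESC, CBX8, BMI1, PCGF5, PHC2, ASXL1 and KDM6B are red from hDE onward, and ASXL3 is red only in the hAFE and hPFE libraries; colours end at -4 and 4.

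The members called with at least a 2-fold difference and non-overlapping libraries numbered 9 in hDE vs hESC (28.3% of all genes met that rule), 6 in hAFE vs hDE (20.2%), 3 in hPFE vs hAFE (5.2%) and 11 in hPFE vs hESC (28.9%). They are 15 genes in all: EZH2, JARID2, CBX2, CBX8, BMI1, PCGF5, PHC1, PHC2, PHC3, SCMH1, ASXL1, ASXL3, KDM6B, KMT2C and KMT2D. Expected counts of the 37 genes were close to unambiguous, since the deposited posterior standard deviation was at most 0.0169 of the count, for BMI1.

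**Figure D2:**
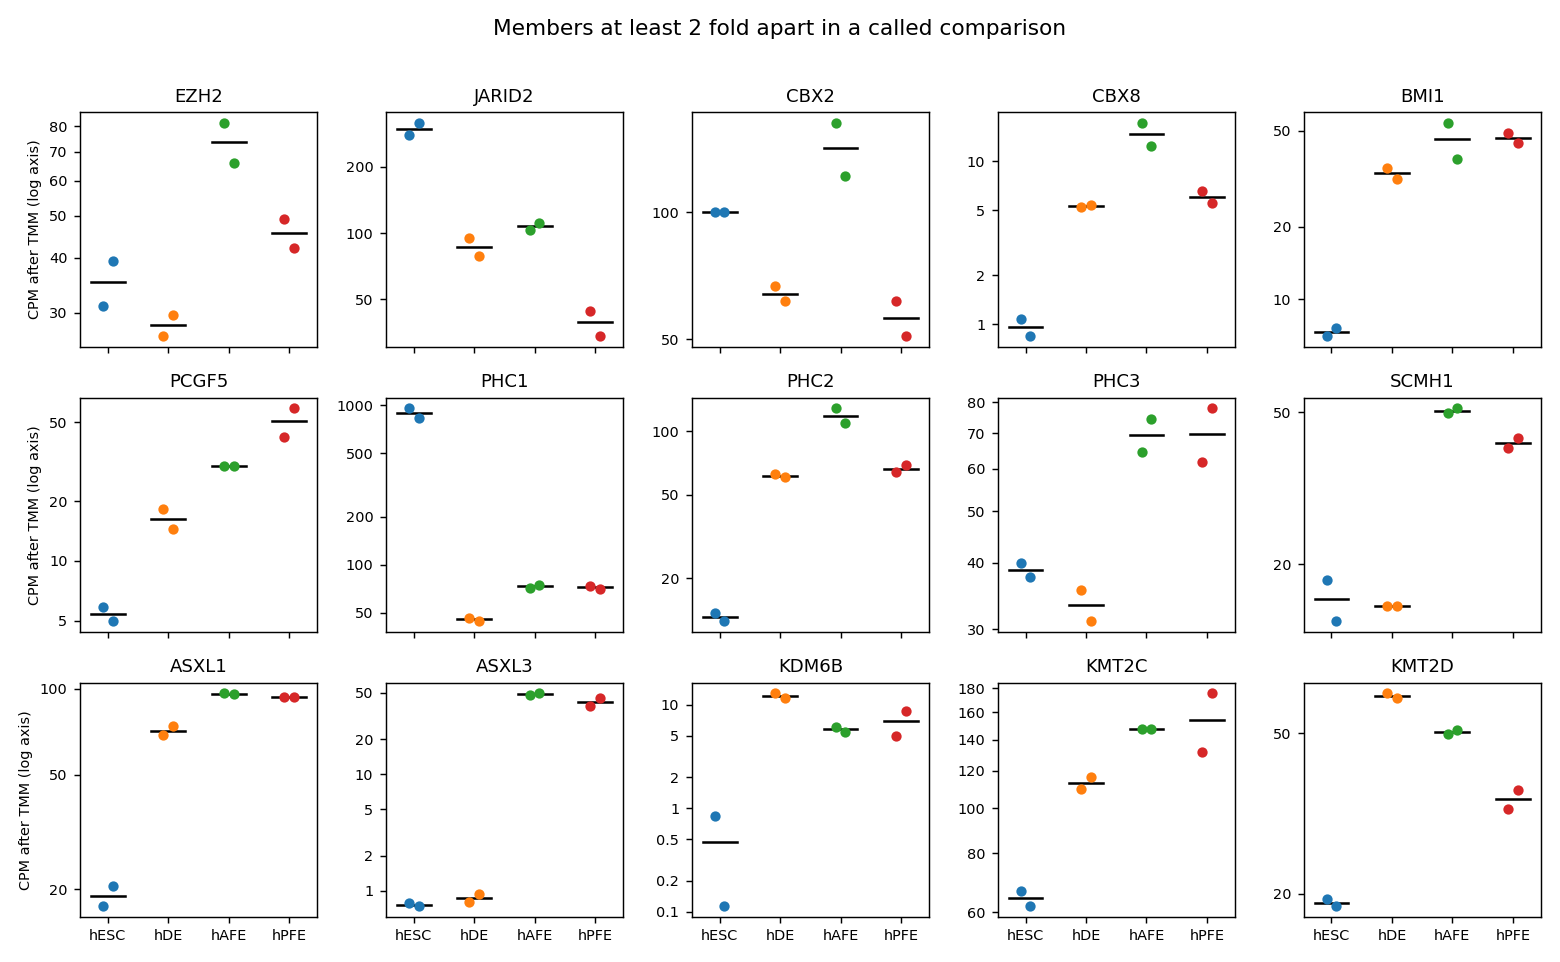
Level of the 15 members that were called with at least a 2-fold difference in a comparison, in CPM on a log axis that differs between panels. Points are the 2 libraries of each stage and bars their mean; PHC1 falls to 46.7 and 44.4 CPM in hDE, against 959 and 827 CPM in hESC, and the 2 KDM6B libraries of hESC, at 0.841 and 0.113 CPM, lie farthest apart.

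The polyhomeotic subunits of canonical PRC1, which polymerise through a SAM domain, showed the largest exchange. PHC1 (ENSG00000111752.10, chr12:8913896-8941467, plus strand, hg38) had 959 and 827 CPM in hESC, 46.7 and 44.4 CPM in hDE, 71.1 and 75.3 CPM in hAFE and 73.7 and 70.7 CPM in hPFE. The hESC libraries stood far above the 6 others, and the hDE libraries were lowest. PHC1 was 19.6-fold lower in hDE than in hESC (log2 fold change -4.29 ± 0.15 SE, adjusted p = 1.04e-05) and 12.4-fold lower in hPFE than in hESC (log2 fold change -3.63, adjusted p = 1.35e-05), and both calls held in all 17 alternative settings. By TPM it was the highest of the 37 genes in hESC, at 122 ± 6.67 TPM (SD, n = 2), ahead of RBBP4 at 55.0 ± 3.90 TPM, and ranked 16 in hDE at 4.16 ± 0.18 TPM. The small rise in hAFE over hDE (1.61-fold, log2 fold change 0.68, adjusted p = 0.00741) did not hold without either hDE library, where the adjusted p was 0.0525 and 0.0656.

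PHC2 (ENSG00000134686.18, chr1:33323623-33431052, minus strand) ran the other way, with 13.7 and 12.6 CPM in hESC, 62.4 and 60.4 CPM in hDE, 128 and 109 CPM in hAFE and 63.9 and 68.9 CPM in hPFE. It was lowest in hESC and highest in hAFE, with no overlap between the hAFE libraries and those of any other stage. It was 4.68-fold higher in hDE than in hESC (log2 fold change 2.23 ± 0.14 SE, adjusted p = 6.25e-05), 1.93-fold higher in hAFE than in hDE (adjusted p = 0.00184), and 1.78-fold lower in hPFE than in hAFE (log2 fold change -0.84, adjusted p = 0.0135). The last call was lost when only the 4 libraries compared were fitted and on the TPM values.

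PHC3 (chr3:170086732-170181749, minus strand) had 39.9 and 37.6 CPM in hESC, 35.6 and 31.1 CPM in hDE, 64.6 and 74.4 CPM in hAFE and 61.8 and 78.0 CPM in hPFE. It changed in foregut endoderm, 2.09-fold higher in hAFE than in hDE (log2 fold change 1.06 ± 0.16 SE, adjusted p = 0.00257). SCMH1, the Sex comb on midleg homologue that joins PRC1 through its SAM domain, had 18.2 and 14.2 CPM in hESC, 15.6 and 15.6 CPM in hDE, 49.7 and 51.3 CPM in hAFE and 40.4 and 42.9 CPM in hPFE. Both foregut stages lay above both earlier stages, and the hAFE level was 3.24-fold that of hDE (log2 fold change 1.70 ± 0.16 SE, adjusted p = 0.000347). All 4 genes of the group were called higher in hAFE than in hDE, where 15% of all genes were, although the PHC1 call was lost without either hDE library. Against hESC, 3 of 4 were called higher in hPFE (21.6% of all genes) and 1, PHC1, lower (23.3%).

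Between hESC and hDE, PHC1 and PHC2 moved in opposite directions and PHC3 was not called, and the start regions of these paralogs are shown. They are RefSeq promoter windows of GRCh38.p14, from 250 bases before to 50 bases after an annotated start, 5′ to 3′ on the gene's strand. Capitals mark each CG dinucleotide and each TATAAA in either orientation, where TTTATA is its reverse complement and the marked pairs and hexamers do not overlap. The 2 annotated starts of PHC1, at chr12:8913593-8913892 and chr12:8914259-8914558 (plus strand), come first, followed by a PHC2 start at chr1:33431046-33431345 and the PHC3 start at chr3:170181684-170181983 (both minus strand).
PHC1 upstream start: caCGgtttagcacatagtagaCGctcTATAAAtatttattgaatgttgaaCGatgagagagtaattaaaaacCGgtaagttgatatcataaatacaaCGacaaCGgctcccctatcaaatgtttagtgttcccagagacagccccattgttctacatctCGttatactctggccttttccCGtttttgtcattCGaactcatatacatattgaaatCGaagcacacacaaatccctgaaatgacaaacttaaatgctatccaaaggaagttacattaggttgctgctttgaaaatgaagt
PHC1 downstream start: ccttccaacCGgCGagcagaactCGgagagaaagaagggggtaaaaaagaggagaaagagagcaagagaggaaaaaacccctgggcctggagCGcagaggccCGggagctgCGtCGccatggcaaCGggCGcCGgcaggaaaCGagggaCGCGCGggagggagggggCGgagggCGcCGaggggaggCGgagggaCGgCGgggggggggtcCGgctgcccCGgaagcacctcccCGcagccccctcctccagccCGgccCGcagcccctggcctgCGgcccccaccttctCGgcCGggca
PHC2 distal start: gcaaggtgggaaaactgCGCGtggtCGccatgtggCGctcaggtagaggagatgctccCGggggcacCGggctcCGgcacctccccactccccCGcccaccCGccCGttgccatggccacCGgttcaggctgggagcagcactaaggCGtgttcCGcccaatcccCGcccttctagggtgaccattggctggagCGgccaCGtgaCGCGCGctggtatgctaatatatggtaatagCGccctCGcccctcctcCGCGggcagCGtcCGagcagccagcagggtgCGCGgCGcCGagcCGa
PHC3 start: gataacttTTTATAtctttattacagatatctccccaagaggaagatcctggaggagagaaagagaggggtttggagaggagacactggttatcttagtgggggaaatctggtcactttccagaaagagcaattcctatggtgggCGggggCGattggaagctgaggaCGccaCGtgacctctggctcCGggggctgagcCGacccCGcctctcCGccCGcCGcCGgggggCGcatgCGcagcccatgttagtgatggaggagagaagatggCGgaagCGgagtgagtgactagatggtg
The upstream PHC1 window held 10 CG dinucleotides and 37% G and C bases, and it contained TATAAA. The downstream PHC1 window held 28 and 72.3%, the PHC2 window shown 30 and 69%, a window at another annotated PHC2 start, not shown, 48 and 80.7%, and the PHC3 window, which has the hexamer on its reverse strand, 15 and 56.3%. Over all 35116 windows the medians were 14 CG dinucleotides and 58.7% G and C, and 11.5% of windows held TATAAA in either orientation. The 34 members with an entry had 49 windows, of which 3 held TATAAA, the upstream one of PHC1, that of PHC3 and one of JARID2, while 17 of the 49 held CCAAT in either orientation against 34.6% of all windows. CBX2, CBX8 and BAP1 were not matched. In the PHC1 and PHC3 windows shown, the hexamer lies near the 5′ end, far upstream of the annotated start. Gene-level counts do not tell which start was used. Of the exonic bases of PHC1, 18.1% also lie in M6PR, a mannose 6-phosphate receptor gene on the opposite strand that peaked at 96.6 CPM, and no source used here states whether the counting used strand. M6PR itself showed a log2 fold change of 0.01 in hDE vs hESC (adjusted p = 0.953).

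In the PRC2 core, the catalytic subunits EZH2 and EZH1 differed in course while the scaffold subunits moved little. EZH2 (ENSG00000106462.10, chr7:148807383-148884321, minus strand), the main H3K27 methyltransferase of dividing cells, had 31.1 and 39.4 CPM in hESC, 26.5 and 29.7 CPM in hDE, 81.3 and 66.1 CPM in hAFE and 49.2 and 42.2 CPM in hPFE. The hAFE libraries were the highest and did not overlap with any other stage. EZH2 was 2.62-fold higher in hAFE than in hDE (log2 fold change 1.39 ± 0.18 SE, adjusted p = 0.00129), a call that held in all 17 alternatives. For hPFE against hAFE its log2 fold change was -0.69 (adjusted p = 0.0559, and 0.00745 to 0.271 over the alternatives), which DESeq2 called, and for hPFE against hESC it was 0.38 (adjusted p = 0.119).

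EZH1, the paralog with weaker methyltransferase activity that predominates in resting cells, had 20.5 and 18.4 CPM in hESC, 11.9 and 14.7 CPM in hDE, 19.8 and 21.1 CPM in hAFE and 19.7 and 20.5 CPM in hPFE. Only the hDE libraries lay apart, 1.46-fold below hESC (adjusted p = 0.0386), with hAFE 1.53-fold above hDE (adjusted p = 0.0331). The hDE vs hESC call was lost when any 1 of those 4 libraries was left out (0.0596 to 0.227), and the hAFE vs hDE call when any 1 hESC, hDE or hAFE library was (0.0644 to 0.211). SUZ12, the scaffold of the complex, had 73.3 and 78.3 CPM in hESC, 57.6 and 54.6 CPM in hDE, 58.7 and 52.9 CPM in hAFE and 61.1 and 65.9 CPM in hPFE. It was 1.35-fold lower in hDE than in hESC (adjusted p = 0.0252), with 0.0853 to 0.159 when any 1 of those 4 libraries was left out.

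RBBP4 and RBBP7, the histone-binding WD40 proteins shared with other chromatin complexes, were the best expressed PRC2 core genes. RBBP4 had 263 and 272 CPM in hESC, 314 and 279.6 CPM in hDE, 355 and 356 CPM in hAFE and 243 and 297 CPM in hPFE, and was called in none of the comparisons. RBBP7 had 113 and 123 CPM in hESC, 84.1 and 91.4 CPM in hDE, 123 and 118 CPM in hAFE and 96.6 and 92.7 CPM in hPFE. It was 1.34-fold lower in hDE than in hESC (adjusted p = 0.0259) and 1.37-fold higher in hAFE than in hDE (adjusted p = 0.0261). The first call was lost without any 1 of the 4 libraries compared (0.0772 to 0.169) and the second without any 1 of the hESC, hDE or hAFE libraries (0.0566 to 0.181). EED, which binds H3K27 trimethylation and stimulates the enzyme, ranged between 17.4 and 25.2 CPM over all 8 libraries and was not called.

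Of the 6 core genes, 3 were called lower in hDE than in hESC, where 21.6% of all genes were, and each of these 3 calls was lost when any 1 of the 4 libraries was left out. In hAFE vs hDE 3 of 6 were called higher, against 15% of all genes, and EZH2 alone of these held in all 17 alternatives. In hPFE vs hESC 0 of 6 were called by edgeR or DESeq2, with 1 at an unadjusted p under 0.05. Of 23 genes of proliferation, 13 were lower (21.6% of all genes) and 1 higher (20.3%) in hDE than in hESC. In hAFE vs hDE 10 were higher (15% of all genes), and in hPFE vs hAFE 5 were lower (2.71%). In hPFE vs hESC 14 were lower (23.3%) and 2 higher (21.6%). Their summed level was 3592 to 3924 CPM in hESC, 1962 to 2068 CPM in hDE, 2993 to 3113 CPM in hAFE and 2007 to 2520 CPM in hPFE. Their part in the PRC2 core differences was not tested.

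Of the PRC2 accessory subunits, JARID2 changed most. JARID2 (ENSG00000008083.13, chr6:15246296-15522040, plus strand), which recruits PRC2 and marks the PRC2.2 form, had 280.0 and 316 CPM in hESC, 95.0 and 78.4 CPM in hDE, 104 and 111 CPM in hAFE and 44.4 and 34.0 CPM in hPFE. In CPM the hESC libraries were the highest, the hPFE libraries the lowest, and neither overlapped with another stage. By TPM hESC was also highest, but hPFE (4.57 and 5.14 TPM) overlapped with hDE (5.26 and 4.53 TPM). JARID2 was 3.44-fold lower in hDE than in hESC (log2 fold change -1.78 ± 0.18 SE, adjusted p = 0.000299), 2.74-fold lower in hPFE than in hAFE (log2 fold change -1.45 ± 0.18 SE, adjusted p = 0.00548) and 7.60-fold lower in hPFE than in hESC (log2 fold change -2.93, adjusted p = 6.82e-05). The call in hPFE vs hAFE was lost only when those 4 libraries were fitted alone, a setting in which 0 members and 52 genes in all were called (2653 genes had an unadjusted p under 0.05).

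MTF2, the Polycomb-like protein that binds CG-rich DNA in the PRC2.1 form, had 129 and 129.9 CPM in hESC, 73.0 and 67.4 CPM in hDE, 87.7 and 93.5 CPM in hAFE and 76.6 and 87.8 CPM in hPFE. It was 1.85-fold lower in hDE (adjusted p = 0.00154) and 1.58-fold lower in hPFE (adjusted p = 0.00512) than in hESC, the second on counts only, since its log2 fold change on log2(TPM + 1) was 0.05. AEBP2, the partner of JARID2 in PRC2.2, had 21.8 to 29.7 CPM in hESC and 13.6 to 23.6 CPM in the later stages. It was 1.69-fold lower in hDE than in hESC at an adjusted p of 0.0321, with 0.0770 to 0.205 when the first hESC or either hDE library was left out.

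The other Polycomb-like proteins were less abundant. PHF1 had 25.8 and 21.5 CPM in hESC, 19.6 and 19.1 CPM in hDE, 15.3 and 16.5 CPM in hAFE and 20.8 and 15.7 CPM in hPFE, and was not called. PHF19 had 9.27 to 12.2 CPM in hESC and 14.1 to 25.5 CPM in hPFE, where it was 1.85-fold higher than in hESC (adjusted p = 0.0395). That call was lost without the first hPFE library or any 1 of the hESC and hDE libraries (0.0661 to 0.207). Summed over the 5 accessory genes, levels were 477 to 499 CPM in hESC and 194 to 219 CPM in hDE. They were 240 to 257 CPM in hAFE and 175 to 187 CPM in hPFE. In CPM the sum was thus highest in hESC, mainly through JARID2 and MTF2. Over the 6 core genes the corresponding sums were 520 to 549, 491 to 515, 634 to 663 and 487 to 538 CPM. By TPM the accessory sums of hESC and hPFE overlapped, at 57.5 to 61.0 TPM in hESC and 43.9 to 59.5 TPM in hPFE.

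The CBX readers, which bring canonical PRC1 to H3K27 trimethylation, were led by CBX2. CBX2 (ENSG00000173894.10, chr17:79778132-79787983, plus strand) had 100.01 and 99.9 CPM in hESC, 66.7 and 61.6 CPM in hDE, 163 and 122 CPM in hAFE and 61.4 and 50.9 CPM in hPFE. The hAFE libraries were the highest without overlap. CBX2 was 2.22-fold higher in hAFE than in hDE (log2 fold change 1.15 ± 0.17 SE, adjusted p = 0.00234), 2.54-fold lower in hPFE than in hAFE (log2 fold change -1.34 ± 0.17 SE, adjusted p = 0.00674) and 1.78-fold lower in hPFE than in hESC (adjusted p = 0.00658). The hPFE vs hAFE call was lost only with those 4 libraries fitted alone, and the hPFE vs hESC call only on TPM. Its 1.56-fold lower level in hDE than in hESC (adjusted p = 0.0196) was lost without any 1 of those 4 libraries (0.0819 to 0.106).

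CBX8 (ENSG00000141570.10, chr17:79792132-79801683, minus strand), whose annotation ends 4.149 kb from that of CBX2, had 1.08 and 0.848 CPM in hESC, 5.25 and 5.36 CPM in hDE, 17.1 and 12.4 CPM in hAFE and 6.56 and 5.56 CPM in hPFE. It was lowest in hESC, at 18 and 15 expected counts, and like CBX2 highest in hAFE. It was 5.47-fold higher in hDE than in hESC (log2 fold change 2.45 ± 0.31 SE, adjusted p = 0.000835, lost on TPM), 2.78-fold higher in hAFE than in hDE (adjusted p = 0.00577, and 0.0514 without the first hDE library) and 6.25-fold higher in hPFE than in hESC (adjusted p = 0.000656). For hPFE vs hAFE it was 2.44-fold lower (adjusted p = 0.0315), but 9 of 17 alternatives ended that call, among them leaving out either hESC library, either hDE library, the first hAFE or the second hPFE library (0.0692 to 0.101).

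CBX7 had 5.05 and 3.73 CPM in hESC, 3.47 and 3.55 CPM in hDE, 4.96 and 5.19 CPM in hAFE and 3.51 and 2.31 CPM in hPFE, and was not called. CBX6 lay between 24.1 and 38.3 CPM in all libraries and was not called. By TPM, CBX2 exceeded CBX7 in every library, by 10.4-fold to 24.6-fold.

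The catalytic RING subunits ubiquitinate H2A. RNF2 (RING1B) had 54.7 and 57.8 CPM in hESC, 54.6 and 57.1 CPM in hDE, 55.7 and 58.5 CPM in hAFE and 36.9 and 52.4 CPM in hPFE, and was not called in any comparison. RING1 (RING1A) had 15.86 and 13.96 CPM in hESC, 16.8 and 17.5 CPM in hDE, 24.9 and 26.4 CPM in hAFE and 26.2 and 18.5 CPM in hPFE. Its 1.503-fold higher level in hPFE than in hESC (adjusted p = 0.0448) was lost in 11 of 17 alternatives, including the omission of any 1 library other than the second hPFE library (0.0540 to 0.207).

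The PCGF subunits decide which kind of PRC1 is built, with PCGF2 and PCGF4 (BMI1) in canonical complexes. BMI1 (ENSG00000168283.13, chr10:22321211-22331484, plus strand) had 7.03 and 7.58 CPM in hESC, 35.0 and 31.4 CPM in hDE, 53.7 and 38.3 CPM in hAFE and 48.7 and 44.5 CPM in hPFE. The hESC libraries lay below the 6 others. BMI1 was 4.54-fold higher in hDE than in hESC (log2 fold change 2.18 ± 0.20 SE, adjusted p = 0.000209) and 6.38-fold higher in hPFE than in hESC (log2 fold change 2.67 ± 0.20 SE, adjusted p = 0.000125), in all 17 alternatives. Of its exonic bases, 23.3% are shared with the read-through gene COMMD3-BMI1 on the same strand, which reached at most 7.66 CPM.

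PCGF5 (ENSG00000180628.14, chr10:91163012-91284331, plus strand), a subunit of a variant PRC1, had 5.83 and 4.97 CPM in hESC, 18.2 and 14.4 CPM in hDE, 30.0 and 30.1 CPM in hAFE and 42.3 and 58.7 CPM in hPFE. Each stage lay above the one before it without overlap. It was 3.02-fold higher in hDE than in hESC (log2 fold change 1.59 ± 0.22 SE, adjusted p = 0.00129, lost on TPM) and 9.33-fold higher in hPFE than in hESC (log2 fold change 3.22 ± 0.23 SE, adjusted p = 0.000101). The step in hAFE vs hDE was 1.84-fold (adjusted p = 0.0167, but 0.0509 and 0.125 without either hDE library), and that in hPFE vs hAFE had a log2 fold change of 0.75 (adjusted p = 0.0671, and 0.0111 to 0.234 over the alternatives), which DESeq2 called.

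PCGF3, its closest paralog, had 48.5 and 49.0 CPM in hESC, 46.6 and 43.8 CPM in hDE, 77.6 and 68.0 CPM in hAFE and 79.6 and 82.0 CPM in hPFE. It was 1.61-fold higher in hAFE than in hDE (adjusted p = 0.00533, and 0.0579 without the second hDE library) and 1.66-fold higher in hPFE than in hESC (adjusted p = 0.00297). PCGF1, of the KDM2B and BCOR complex, had 3.90 to 6.74 CPM, PCGF2 (MEL18) 10.9 to 16.7 CPM and PCGF6, of the E2F6 and MGA complex, 13.4 to 25.0 CPM over the 8 libraries, and none of these 3 was called by edgeR or DESeq2 in any comparison. PCGF1 had an unadjusted p under 0.05 in hDE vs hESC and PCGF6 in hPFE vs hESC. Of the exonic bases of PCGF2, 45.7% lie in other genes.

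In PR-DUB, the ASXL cofactors changed and their catalytic partner did not pass the test. BAP1, the deubiquitinase, had 77.3 and 83.2 CPM in hESC, 76.8 and 79.7 CPM in hDE, 83.9 and 84.2 CPM in hAFE and 71.5 and 59.2 CPM in hPFE. ASXL1 (ENSG00000171456.18, chr20:32358330-32439319, plus strand) had 17.4 and 20.5 CPM in hESC, 68.7 and 74.2 CPM in hDE, 96.3 and 95.7 CPM in hAFE and 93.9 and 93.8 CPM in hPFE. It was 3.77-fold higher in hDE than in hESC (log2 fold change 1.91 ± 0.13 SE, adjusted p = 8.45e-05) and 4.94-fold higher in hPFE than in hESC (adjusted p = 4.97e-05), both in all 17 alternatives. The 1.34-fold difference in hAFE vs hDE (adjusted p = 0.0393) was lost without any 1 of the hESC, hDE or hAFE libraries (0.0631 to 0.224).

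ASXL3 (ENSG00000141431.11, chr18:33578233-33751192, plus strand) was near absent in the first 2 stages, with 0.781 and 0.735 CPM in hESC and 0.801 and 0.942 CPM in hDE, against 47.8 and 49.6 CPM in hAFE and 38.5 and 45.4 CPM in hPFE. The low values rest on 9 to 13 expected counts per library. ASXL3 was 55.0-fold higher in hAFE than in hDE (log2 fold change 5.78 ± 0.21 SE, adjusted p = 1.14e-05) and 54.8-fold higher in hPFE than in hESC (log2 fold change 5.78 ± 0.21 SE, adjusted p = 1.32e-05), in all 17 alternatives. Both comparisons set libraries without the re-analysis mark against libraries with it. For hPFE vs hAFE its log2 fold change was -0.21 (adjusted p = 0.413).

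ASXL2 had 34.8 and 36.6 CPM in hESC, 46.0 and 45.3 CPM in hDE, 28.6 and 32.1 CPM in hAFE and 31.6 and 40.5 CPM in hPFE. It was 1.505-fold lower in hAFE than in hDE (adjusted p = 0.0254), the 1 member called lower there. The call was lost without either hESC library, either hDE library or the first hAFE library (0.0571 to 0.126), and on log2(TPM + 1) the log2 fold change was 0.38.

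The H3K27 demethylases differed in level and in course. KDM6B (JMJD3; ENSG00000132510.10, chr17:7839904-7854796, plus strand) had 0.841 and 0.113 CPM in hESC, 12.9 and 11.6 CPM in hDE, 6.08 and 5.48 CPM in hAFE and 5.04 and 8.80 CPM in hPFE. The hESC libraries, with 14 and 2 expected counts, lay below all others, and the hDE libraries above all others. KDM6B was 25.6-fold higher in hDE than in hESC (log2 fold change 4.68 ± 0.65 SE, adjusted p = 0.00132) and 14.4-fold higher in hPFE than in hESC (log2 fold change 3.85 ± 0.65 SE, adjusted p = 0.00288), in all 17 alternatives. For hAFE vs hDE its log2 fold change was -1.08 (adjusted p = 0.16), and 0.40 on log2(TPM + 1).

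KDM6A (UTX), which sits in KMT2C and KMT2D complexes, had 148 and 128 CPM in hESC, 254 and 237 CPM in hDE, 353 and 201 CPM in hAFE and 128 and 219 CPM in hPFE. The replicates of both foregut stages lay far apart, and their ranges overlapped each other. KDM6A was not called by edgeR; its log2 fold change in hDE vs hESC was 0.83 (adjusted p = 0.0656, and 4.37e-05 to 0.551 over the alternatives), which DESeq2 called. By TPM it exceeded KDM6B in every library and was second to RBBP4 among the 37 genes in hDE, at 25.1 ± 1.97 TPM (SD, n = 2).

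All 4 KMT2 genes were called higher in hDE than in hESC, where 20.3% of genes were. On log2(TPM + 1) KMT2D alone kept its call (limma adjusted p = 0.0118), with 0.337 for KMT2A, 0.742 for KMT2B and 0.722 for KMT2C. KMT2D (ENSG00000167548.15, chr12:49018975-49059774, minus strand), a main H3K4 monomethyltransferase of enhancers, had 19.3 and 18.6 CPM in hESC, 62.8 and 61.0 CPM in hDE, 49.6 and 51.0 CPM in hAFE and 32.5 and 36.1 CPM in hPFE. In CPM it was highest in hDE, with no overlap between any of the stages, but hAFE vs hDE was not called (log2 fold change -0.30, adjusted p = 0.105) and had a value of 0.53 on log2(TPM + 1). KMT2D was 3.26-fold higher in hDE than in hESC (log2 fold change 1.71 ± 0.13 SE, adjusted p = 0.000106) and 1.81-fold higher in hPFE than in hESC (adjusted p = 0.00169), in all 17 alternatives. For hPFE vs hAFE it was 1.47-fold lower (adjusted p = 0.0392), a call ended by 12 of 17 alternatives, among them the omission of any 1 library other than the second hPFE library (0.0709 to 0.111).

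KMT2C (ENSG00000055609.17, chr7:152134922-152436005, minus strand), its paralog, had 66.7 and 61.7 CPM in hESC, 109.8 and 116 CPM in hDE, 148 and 147 CPM in hAFE and 132 and 176 CPM in hPFE. It was 1.76-fold higher in hDE (adjusted p = 0.00538, and 0.0534 without the second hESC library) and 2.39-fold higher in hPFE (log2 fold change 1.26 ± 0.16 SE, adjusted p = 0.000933) than in hESC. KMT2A (MLL1), which maintains HOX expression, had 113 and 114 CPM in hESC, 187 and 177 CPM in hDE, 173 and 168 CPM in hAFE and 129.9 and 161 CPM in hPFE. It was 1.61-fold higher in hDE than in hESC (adjusted p = 0.00677), with 0.0534 to 0.0589 when either hESC library or the first hDE library was left out. KMT2B, which acts at bivalent promoters, had 12.7 and 8.76 CPM in hESC, 17.4 and 18.0 CPM in hDE, 18.8 and 16.7 CPM in hAFE and 16.1 and 11.6 CPM in hPFE. Its 1.65-fold higher level in hDE (adjusted p = 0.0491) was lost in 10 of 17 alternatives, including the omission of any 1 hESC, hDE or hAFE library (0.0514 to 0.261). In hAFE vs hDE, 0 of the 4 were called by edgeR or DESeq2, with KMT2C and KMT2D at an unadjusted p under 0.05.

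**Figure D3:**
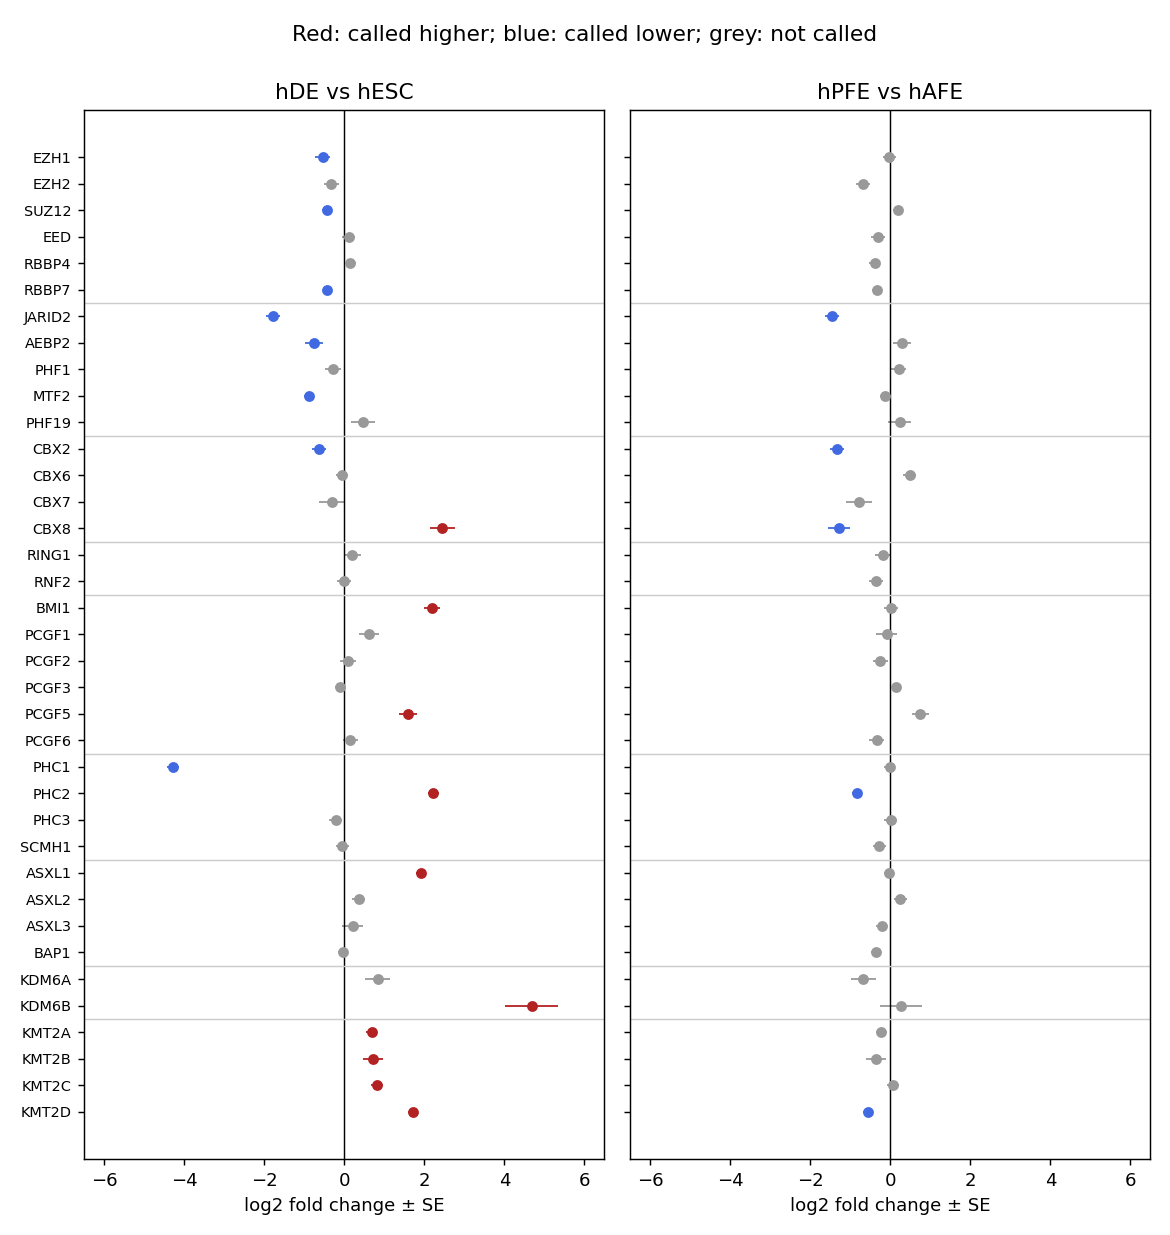
Log2 fold change of the 37 genes in hDE vs hESC (left) and hPFE vs hAFE (right), the 2 comparisons of stages alike in the re-analysis mark of their titles. Points are the fitted value of the later over the earlier stage, bars its SE, and red, blue and grey stand for called higher, called lower and not called. PHC1 lies lowest in hDE vs hESC at -4.29 and KDM6B highest at 4.68, and the 5 coloured points in hPFE vs hAFE are all blue.

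Ratios of 2 members within a library do not depend on the scaling between libraries, and 19 pairs were compared as log2 ratios of TPM over the 4 stages. Most pairs are paralogs, but AEBP2 with JARID2 and KDM6A with EZH2 are not. An exact permutation test of the F ratio over all assignments of libraries to stages cannot give a p below 0.00952. Of the 19 pairs, 7 had an unadjusted p under 0.05 and 0 an adjusted p under 0.05, the lowest being 0.129, so that at 2 libraries per stage these ratios are given as values. PHC2 over PHC1 was 0.0248 and 0.0222 in hESC, 2.10 and 2.13 in hDE, 2.59 and 1.98 in hAFE and 1.32 and 1.39 in hPFE (p = 0.0286, exact permutation). PHC1 was thus the higher of the pair in both hESC libraries and PHC2 in the 6 others. PHC3 over PHC1 was 0.0307 to 0.0333 in hESC and 0.476 to 0.699 later (p = 0.0952, exact permutation).

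ASXL2 over ASXL1 was 0.916 and 1.36 in hESC, 0.322 and 0.208 in hDE, 0.169 and 0.145 in hAFE and 0.131 and 0.133 in hPFE, at the smallest p the exact permutation test allows. AEBP2 over JARID2 was 0.235 and 0.156 in hESC, 0.319 and 0.402 in hDE, 0.361 and 0.420 in hAFE and 1.29 and 1.66 in hPFE (p = 0.0190, exact permutation). The 2 subunits of PRC2.2 therefore changed order between hAFE and hPFE, with JARID2 the higher in the 6 libraries before hPFE. EZH1 over EZH2 was below 1 in every library, at 0.718 and 0.582 in hESC, 0.404 and 0.550 in hDE, 0.247 and 0.308 in hAFE and 0.504 and 0.586 in hPFE (p = 0.0476, exact permutation).

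PCGF2 over BMI1 was 2.88 and 1.98 in hESC, 0.585 and 0.563 in hDE, 0.411 and 0.610 in hAFE and 0.483 and 0.449 in hPFE (p = 0.0857, exact permutation). In canonical PRC1, transcripts of PCGF2 were therefore the more abundant in hESC and those of BMI1 afterwards. PCGF5 over PCGF3 was 0.254 and 0.281 in hESC and 0.534 to 0.832 in the later libraries (p = 0.0476, exact permutation). CBX8 over CBX7 was 0.191 and 0.348 in hESC and 1.17 to 2.85 later (p = 0.0571, exact permutation).

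KMT2D over KMT2C was 0.580 and 0.558 in hESC, 1.23 and 1.02 in hDE, 0.644 and 0.790 in hAFE and 0.607 and 0.382 in hPFE (p = 0.0476, exact permutation), above 1 in the hDE libraries alone. KMT2B over KMT2A lay between 0.123 and 0.214 in all 8 libraries (p = 0.571, exact permutation). For the opposing enzymes at H3K27, KDM6A over EZH2 was 3.32 and 2.55 in hESC, 8.10 and 6.12 in hDE, 2.98 and 2.11 in hAFE and 1.88 and 3.56 in hPFE (p = 0.124, exact permutation), highest in both hDE libraries.

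**Figure D4:**
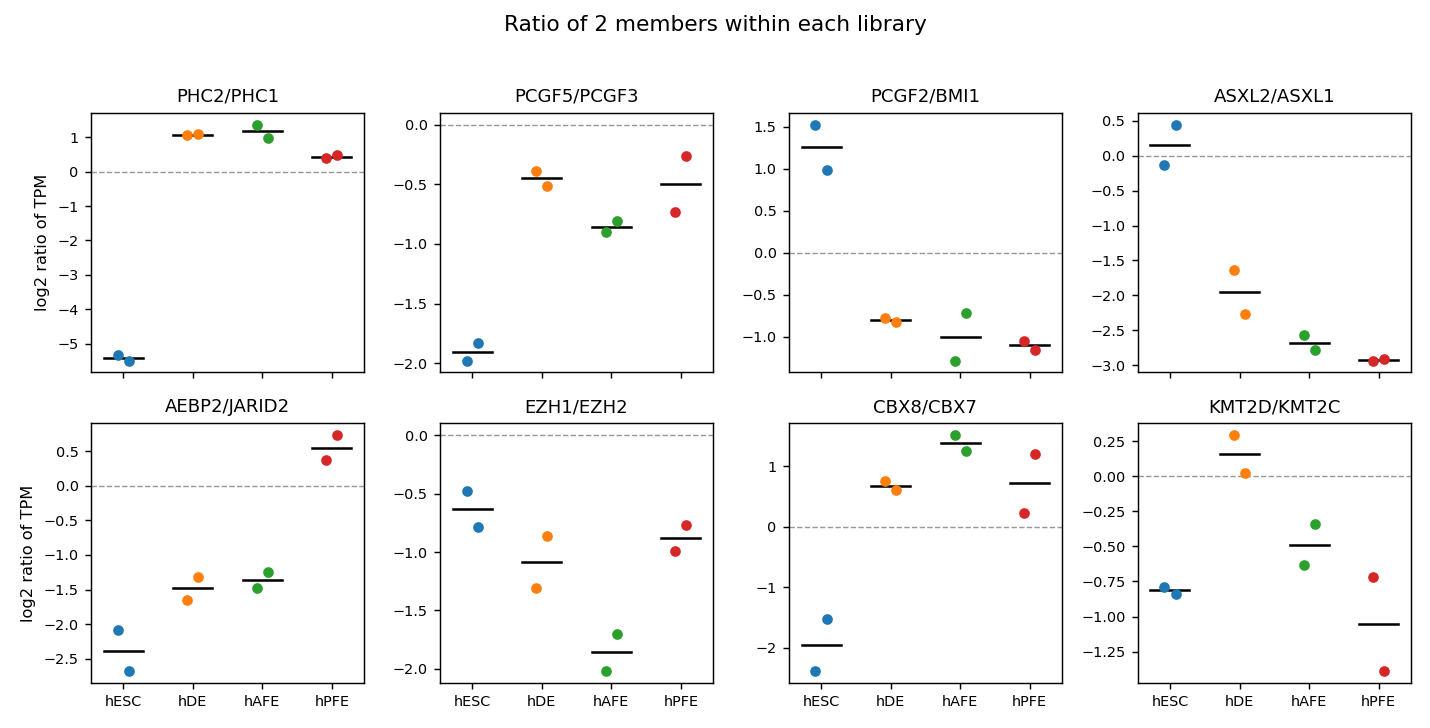
Log2 ratio of TPM for 8 pairs of members in each library, where the dashed line at 0 is equal abundance. Points are libraries and bars stage means; PHC2/PHC1, PCGF2/BMI1 and CBX8/CBX7 cross the line between hESC and hDE, and AEBP2/JARID2 crosses it between hAFE and hPFE.

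By TPM, which orders genes within a stage, RBBP4 led in hDE (44.4 ± 0.13), hAFE (83.4 ± 8.10) and hPFE (76.7 ± 27.3 TPM, SD, n = 2), with RBBP7 and KDM6A next in each of these stages. In hAFE the values of KDM6A (46.8 ± 20.6 TPM) and RBBP7 (45.3 ± 4.05 TPM) did not differ beyond their spread. The lowest members were ASXL3 (0.09 TPM), KDM6B (0.1 TPM) and CBX8 (0.145 TPM) in hESC, ASXL3 in hDE (0.06 TPM), and CBX7 in hAFE (0.95 TPM) and hPFE (0.725 TPM).

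Among 22 other Polycomb genes tested, 7 were higher and 3 lower in hDE than in hESC. In hAFE vs hDE 6 were higher and 2 lower, and in hPFE vs hAFE 3 were lower. In hPFE vs hESC 8 were higher and 5 lower. Of all genes, 41.9%, 30.2%, 7.49% and 45% were called in these comparisons, in that order. YAF2, a variant PRC1 subunit related to RYBP, averaged 25.0 ± 4.31 CPM in hPFE and 1.81 ± 0.0049 CPM in hESC (SD, n = 2 each; log2 fold change 3.79, adjusted p = 8.9e-05). KDM2B, which brings PCGF1 complexes to CG-rich DNA, averaged 34.7 ± 3.70 CPM in hPFE and 69.8 ± 5.17 CPM in hAFE (log2 fold change -1.01), and SCML2 20.2 ± 0.222 CPM in hPFE and 39.4 ± 6.12 CPM in hAFE (log2 fold change -0.96).

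Of 17 other genes of H3K4 methylation, 4 were higher and 3 lower in hDE than in hESC (41.9% of all genes were called). In hAFE vs hDE 1 was higher and 1 lower (30.2%), and in hPFE vs hAFE 1 was lower (7.49%). In hPFE vs hESC 4 were higher and 6 lower (45%). ASH2L, a core subunit shared by all KMT2 complexes, averaged 148.5 ± 3.23 CPM in hDE and 48.1 ± 2.51 CPM in hESC (log2 fold change 1.63), and 47.5 ± 2.27 CPM in hAFE. PSIP1, which tethers KMT2A complexes to chromatin, averaged 185.8 ± 2.58 CPM in hDE and 511 ± 32.9 CPM in hESC (log2 fold change -1.46). Of the proliferation genes, MCM2, a subunit of the replicative helicase, averaged 219.8 ± 13.3 CPM in hAFE and 65.5 ± 3.47 CPM in hDE (log2 fold change 1.75), and MCM4 140.3 ± 9.14 CPM in hDE and 432 ± 15.2 CPM in hESC (log2 fold change -1.62).

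Of the 39 HOX genes, known targets of Polycomb silencing in stem cells, 9 passed the count filter. By edgeR, 0 were called in hDE vs hESC (0 at an unadjusted p under 0.05 and 0 by DESeq2). In hPFE vs hAFE edgeR also called 0 (1, lower, at an unadjusted p under 0.05 and 0 by DESeq2). It called 4 higher in hAFE than in hDE (15% of all genes) and 6 higher in hPFE than in hESC (21.6%). Summed over all 39, they had 0.226 to 0.481 CPM in hESC, 1.42 to 1.45 CPM in hDE, 11.04 to 173 CPM in hAFE and 38.1 to 89.1 CPM in hPFE.

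The mesenchyme markers of hPFE move with the hPFE comparisons. Of the 5 markers 3 were tested, and 2 of these, COL1A1 and COL3A1, were higher in hPFE than in hAFE, COL1A1 at 73.8 ± 15.4 CPM in hPFE and 5.67 ± 1.29 CPM in hAFE. COL3A1 had 1232 CPM in the first hPFE library and 29.7 CPM in the second. The transcription factors PRRX1 and TWIST1, which mark mesenchyme, had 7.59 and 1.396 CPM in the first hPFE library. In the second they had 0.216 and 0.144 CPM. The remaining marker, PDGFRA, did not follow, with 28.4 and 1.02 CPM in hAFE and 7.09 and 4.91 CPM in hPFE. Of the 5 members called lower in hPFE than in hAFE, JARID2, CBX2, CBX8 and PHC2 were also called without the first hPFE library (edgeR adjusted p = 0.00549, 0.0105, 0.0446 and 0.0313 in that order) and KMT2D was not (0.0709). That fit keeps a single hPFE library, whose mesenchyme markers summed to 97.9 CPM against 15.2 to 36.8 CPM in hAFE. Trophoblast and amnion markers summed to 18.0 to 83.3 CPM in hAFE and 12.1 to 17.5 CPM in hPFE, against at most 0.797 CPM before. Endothelial and blood markers summed to 194 to 199 CPM in hESC and at most 6.999 CPM later. Only 1 of these 5 endothelial and blood genes reached 1 TPM in hESC, so their sum there does not mark a cell type. The part of all these markers in the results was not tested.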

How the data were processed

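The values come from 8 gene-level RSEM tables that the authors deposited, as their file headers show. The submitters' processing notes list RSEM, DESeq2 and hg38, with no version, and no source used here states the aligner. Strand-marked paired-end libraries were made from ribosome-depleted RNA, per the labels' protocols. RSEM's deposited expected counts share out ambiguous reads between genes by an estimate. The deposited TPM divide them by effective length. Effective lengths (for an alternative form of the pair ratios) and posterior standard deviations are other deposited columns. All 37 genes matched GENCODE 29.

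Expected counts were rounded, filtered with filterByExpr (17446 genes) and tested with edgeR 4.0.16 in R 4.3.3, using TMM scaling and the quasi-likelihood test with 4 stage terms over all 8 libraries (4 residual degrees of freedom). The p-values were adjusted by Benjamini-Hochberg over all genes, and called means an adjusted p under 0.05. The SE is the absolute log2 fold change over the square root of F. Sharing the spread assumes that stages vary alike. CPM are counts over the TMM-scaled library total. The steps were checked on simulated data.

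The members, although a list of names with no threshold on values, and the other gene lists were chosen with earlier results of these data known. Values per library and tests are given for members called with at least a 2-fold difference and non-overlapping libraries, and for the best expressed pair of each role. Of the pathway, HOX and proliferation lists of non-members, at most 4 called genes with the largest changes at 5 TPM or more could be named per comparison, and those most related to the members are printed, a choice made after their values were seen. One gene is not reported here. The 17 alternatives were RLE scaling, DESeq2 1.42.0, 2 other count filters, only the 4 libraries compared, a replicate block, limma 3.58.1 on log2(TPM + 1), voom with a weight per stage, scaling without mitochondrial, histone and structural RNA genes, and omission of each of the 8 libraries.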

Additional observations from a re-analysis of the deposited data

How the results depend on the processing

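Of the members' calls, 8 of 18 in hDE vs hESC, 6 of 14 in hAFE vs hDE, 0 of 5 in hPFE vs hAFE and 14 of 18 in hPFE vs hESC held in all 17 alternatives. Leaving out each library gave 11 to 20 called members in hDE vs hESC (3695 to 8465 genes in all), 7 to 17 in hAFE vs hDE (2435 to 6363), 3 to 5 in hPFE vs hAFE (479 to 1552) and 16 to 20 in hPFE vs hESC (3822 to 8422), where the lone library of a stage is assumed to vary like the rest. On log2(TPM + 1), 29 members were called in hAFE vs hDE (29 higher, 0 lower) and 2 in hPFE vs hAFE. The splits were 5 higher and 9 lower in hDE vs hESC and 20 and 2 in hPFE vs hESC. For all genes they were 941 higher and 4383 lower, 6440 and 757, 584 and 67, and 5052 and 1286 in the 4 comparisons, against 3533 and 3771, 2609 and 2658, 833 and 473, and 3773 and 4069 on counts. On that scale the median of all genes moved to -0.27, 0.50, 0.14 and 0.36, where TPM carry no TMM scaling. ASXL2 in hAFE vs hDE (0.38) and MTF2 in hPFE vs hESC (0.0459) reversed sign there and lay below that median. In hPFE vs hAFE, 0 members and 52 genes were called with only those 4 libraries fitted, 3 members and 447 genes with voom, 651 genes on TPM and 3234 genes without a count filter, against 5 members and 1306 genes as reported; the cause was not tested. The pair ratios gave 0 adjusted calls in every setting, in a design whose smallest p leaves little room for one, so this says nothing of their stability. Same-numbered libraries did not deviate together (correlations of -0.041 to 0.061), which does not tell whether they share a culture or a run. A replicate block gave 17, 13, 4 and 17 called members and 6909, 4941, 1072 and 7494 genes. Fewer than 20 expected counts per library lie behind CBX8 and KDM6B in hESC and ASXL3 in hESC and hDE, and 2 libraries a stage limit every spread.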
